A study of Mus musculus with 8 samples.

Results

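Rhobtb1 was followed in mouse kidney nuclei across cell classes, 2 genotypes and 2 times of day. It is 1 of the 32285 genes in the count matrices and 1 of the 21286 read here as mRNAs (protein-coding). It was taken by its symbol, Rhobtb1, and was chosen by its UMI counts in these same libraries, which were already known to differ between groups. Its own levels and changes are therefore a description with no test, and p-values are given for other genes only.

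RhoBTB proteins are atypical members of the small GTPases. They carry a GTPase-like domain followed by BTB domains, through which they bind cullin 3, the scaffold of a ubiquitin ligase, and act as adaptors that bring proteins to it. RhoBTB1 is best known from vascular smooth muscle, where PPARγ raises its expression and where it lowers the activity of PDE5, the enzyme that breaks down cyclic GMP.

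Single-nucleus RNA-seq had been run on kidney cross-sections of male C57BL/6J mice. All mice were Bmal1 lox/lox. Ctrl mice carried only these floxed alleles, whereas cKOt mice also carried Pax8-rtTA and LC-1, which together let doxycycline switch on Cre in renal tubule cells. Both genotypes drank doxycycline (2 mg/ml, with 20 mg/ml sucrose) for 2 weeks from 8 weeks of age and were sacrificed at 14 weeks. Light and dark phases lasted 12 h each, and kidneys were taken at ZT4 (light phase) or ZT16 (dark phase). Each of the 4 groups had 2 libraries, and the study's methods tie each library to 1 mouse. Vascular, stromal and immune cells are not targets of this Cre, so for them the genotype is that of the tubule around them. Arntl (Bmal1) itself was at 39.2 and 33.1 CPM in Ctrl ZT4, 160 and 157 in Ctrl ZT16, 288 and 203 in cKOt ZT4 and 294 and 258 in cKOt ZT16. These 3′ counts do not tell deleted from intact transcripts, so they do not check the deletion.

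Of 82784 barcodes, 81391 nuclei were kept, 8758 to 10975 per library, with 36548873 to 54500820 UMIs (unique molecules counted) per library. Clusters built without Rhobtb1 were named from marker genes, which put 78886 nuclei (96.9%) into 22 classes. Of these, 20 had at least 10 nuclei in each library and were compared: 13 of the tubule and 7 others. Any 2 libraries shared 18 to 42 barcodes, and 823 of 80565 distinct barcodes (1.02%) occurred in more than 1 library. Levels are CPM, that is Rhobtb1 UMIs per 1000000 mRNA UMIs of the same nuclei. Values given in pairs are those of replicates 1 and 2.

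In RefSeq on GRCm38.p6, Rhobtb1 spans chr10:69151058-69291791 on the + strand, 140734 bp. RefSeq gives 3 promoter windows for it, each from 250 bases before to 50 bases after a start site. They are printed because the gene followed time of day and Bmal1 genotype, and BMAL1 binds the E-box CACGTG. A match to CACGTG is in capitals. Window 1 is chr10:69208302-69208601, window 2 is chr10:69212407-69212706 and window 3 is chr10:69212944-69213243, all read on the + strand.
Rhobtb1 window 1: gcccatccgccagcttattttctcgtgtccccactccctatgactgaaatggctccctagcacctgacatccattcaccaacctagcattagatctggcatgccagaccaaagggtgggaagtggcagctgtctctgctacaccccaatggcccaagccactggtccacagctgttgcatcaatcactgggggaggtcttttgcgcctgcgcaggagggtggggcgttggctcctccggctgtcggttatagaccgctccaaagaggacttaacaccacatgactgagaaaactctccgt
Rhobtb1 window 2: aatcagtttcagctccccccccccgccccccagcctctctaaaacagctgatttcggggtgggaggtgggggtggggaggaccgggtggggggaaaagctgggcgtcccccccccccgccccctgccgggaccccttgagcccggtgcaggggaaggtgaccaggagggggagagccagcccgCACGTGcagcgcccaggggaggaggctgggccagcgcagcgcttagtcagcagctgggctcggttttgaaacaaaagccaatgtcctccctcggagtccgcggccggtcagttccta
Rhobtb1 window 3: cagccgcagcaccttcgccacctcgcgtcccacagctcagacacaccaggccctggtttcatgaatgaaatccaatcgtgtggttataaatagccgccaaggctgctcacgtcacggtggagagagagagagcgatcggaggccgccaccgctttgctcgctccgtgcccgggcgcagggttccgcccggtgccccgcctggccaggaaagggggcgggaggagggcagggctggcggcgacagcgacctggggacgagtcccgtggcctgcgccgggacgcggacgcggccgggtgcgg
Window 2 held 1 E-box, which starts 67 bases before the start site. The other windows held none. No window held the related E-box CACGTT, the REV-ERB core AGGTCA or a D-box (TTATGTAA, TTACATAA, TTATGCAA or TTACGTAA), each searched on both strands. CACGTG was present in 7.15% of the 32851 windows of 27025 genes, CACGTT in 4.68%, AGGTCA in 16.3% and a D-box in 1.78%. These shares are per window, whereas 3 windows were searched for Rhobtb1, so a match in any of them is less rare. They were not matched for GC content, which was 68.7% in window 2. The letters show no site in use, and 3′ counts do not show which start site was used. No window covers the first base of the span given for the gene, so the sequence there was not searched.

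Over all nuclei of a library, Rhobtb1 was low only in control kidneys in the light phase. It was at 194 and 223 CPM in Ctrl ZT4 and at 879 and 808 in Ctrl ZT16. In cKOt it was at 1325 and 1250 CPM at ZT4 and at 1501 and 1191 at ZT16. Both Ctrl ZT4 libraries lay below every other library, both Ctrl ZT16 libraries lay between them and the cKOt libraries, and the cKOt libraries of the 2 time points overlapped. In total 294578 Rhobtb1 UMIs were counted, and 47.5% of all nuclei held at least 1.

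On the log2 scale of the edgeR fit, the whole-kidney level was 2.66 ± 0.15 higher in cKOt than in Ctrl at ZT4 (SE of the fit, n = 2 per group). At ZT16 the same difference was 0.72 ± 0.15. ZT16 was 2.01 ± 0.15 above ZT4 in Ctrl and 0.07 ± 0.15 above it in cKOt. The change from ZT4 to ZT16 was thus 1.94 ± 0.21 smaller in cKOt. These contrasts share libraries and are not independent of each other. Ranked by absolute fold change, Rhobtb1 was 39 of 16145 mRNAs for genotype at ZT4 and 67 of 16165 for time in Ctrl. It was 941 of 16094 for genotype at ZT16 and 11601 of 16069 for time in cKOt. A sum over a kidney cannot tell fewer cells of a type from less RNA per cell, so the classes follow.

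The proximal convoluted tubule (PCT), which reabsorbs most of the filtered glucose, amino acids and phosphate, carried most of the gene. Its 22214 nuclei held 74.4% to 86.1% of the Rhobtb1 UMIs of a library. Rhobtb1 was at 375 and 463 CPM in PCT nuclei of Ctrl ZT4, at 2105 and 2102 in Ctrl ZT16, at 2628 and 2541 in cKOt ZT4 and at 2913 and 2588 in cKOt ZT16. Ctrl ZT4 was the only low group, Ctrl ZT16 stood below both cKOt groups without overlap, and the cKOt groups overlapped. How many of all mRNAs had groups without overlap was not counted.

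In PCT the genotype difference was 2.62 ± 0.20 (log2) at ZT4 and 0.42 ± 0.19 at ZT16. The difference between time points was 2.32 ± 0.20 in Ctrl and 0.11 ± 0.19 in cKOt, with an interaction of -2.21 ± 0.27. Of the whole-kidney difference by genotype at ZT4, PCT nuclei accounted for 82.5%. They accounted for 88.2% of the difference between time points in Ctrl and for 71.2% of the genotype difference at ZT16. By absolute fold change it ranked 50 of 14055 mRNAs in PCT for genotype at ZT4 and 40 of 13956 for time in Ctrl. For genotype at ZT16, however, it ranked 2736 of 13955, so many mRNAs differed as much there.

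**Figure D1:**
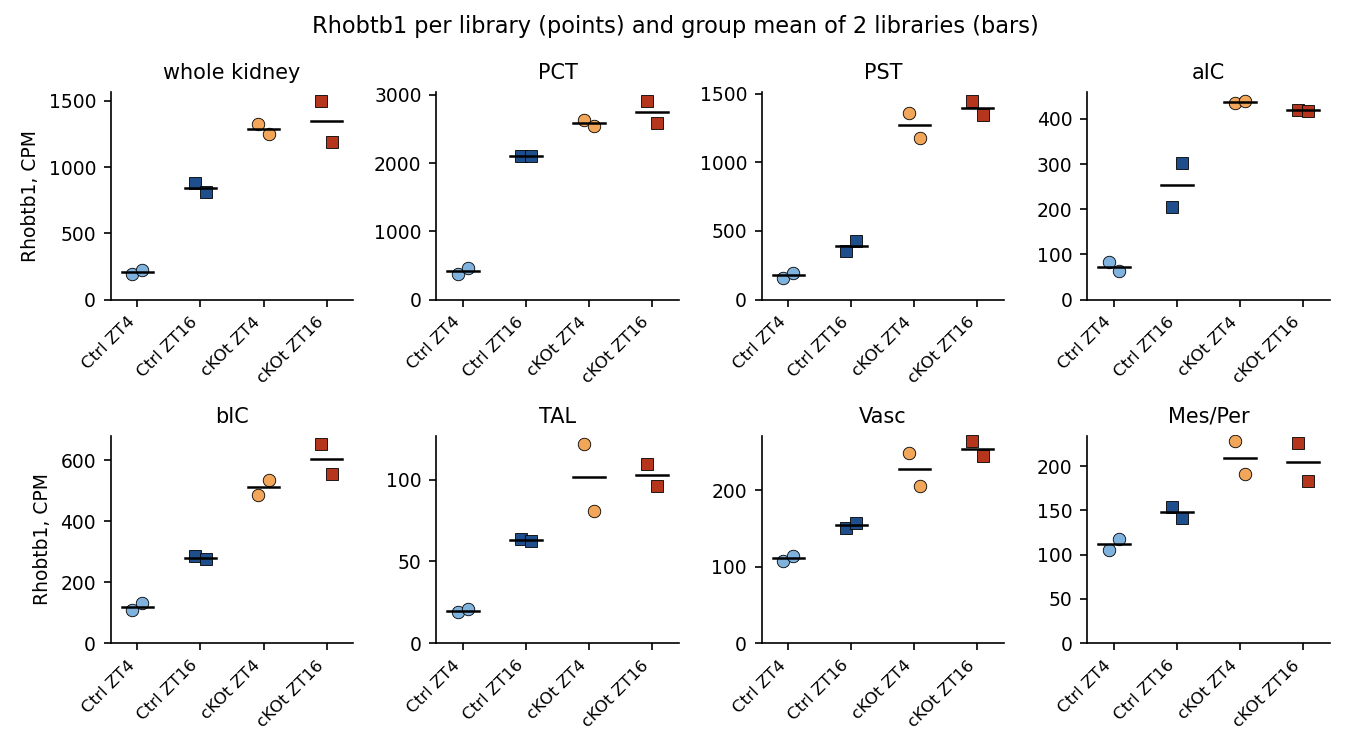
Rhobtb1 in CPM of mRNA UMIs (vertical axes, each from 0) per library (points) in the 4 groups, with bars at the mean of 2 libraries, for the whole kidney and 7 classes. Ctrl ZT4 is lowest in each panel, and PST differs from PCT in Ctrl ZT16, which at 350 and 424 CPM stays far below both cKOt groups.

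PCT nuclei fell into 11 clusters, some of them filled mostly by 1 group or even 1 library and others mixed. Clusters 9 and 26 held 42.4% and 21.1% of the Ctrl ZT4 PCT nuclei, and clusters 16, 25 and 15 held 22.8%, 22.2% and 21.7% of those of Ctrl ZT16. Cluster 27 held 19.1% of the cKOt ZT4 nuclei, and clusters 11 and 7 held 31.9% and 28.0% of those of cKOt ZT16. Of all nuclei of a cluster, 97.6% came from cKOt ZT4 replicate 2 in cluster 27, 90.3% from Ctrl ZT16 replicate 1 in cluster 25 and 90.2% from Ctrl ZT4 replicate 2 in cluster 26. Cluster 15, by contrast, held 945 nuclei of Ctrl ZT4 and 1098 of Ctrl ZT16. Clusters 5 and 10 had over 50 nuclei in every group. In both, Ctrl ZT4 was lowest and Ctrl ZT16 lay below the cKOt groups, whose own order differed. Rhobtb1 was at 422, 2384, 3023 and 2810 CPM in cluster 5 and at 422, 2612, 2872 and 3109 CPM in cluster 10 (Ctrl ZT4, Ctrl ZT16, cKOt ZT4 and cKOt ZT16). Among clusters with at least 50 nuclei of a group, levels ran from 330 to 665 CPM in Ctrl ZT4 and from 1754 to 2753 in Ctrl ZT16. In cKOt they ran from 2323 to 3023 at ZT4 and from 2486 to 3109 at ZT16. No PCT cluster of Ctrl ZT4 thus reached the lowest cluster of another group.

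PCT clusters with PCT markers only, and those that also carried markers of the straight tubule, were then read apart. All clusters of the second kind but cluster 18 scored higher on markers of the straight tubule than on those of PCT. They are counted as PCT in all other values. The first kind was at 411 and 493 CPM in Ctrl ZT4, 2505 and 2598 in Ctrl ZT16, 2952 and 2763 in cKOt ZT4 and 3263 and 2803 in cKOt ZT16. The second kind was at 339 and 440 CPM in Ctrl ZT4, 1741 and 1792 in Ctrl ZT16, 2396 and 2312 in cKOt ZT4 and 2672 and 2427 in cKOt ZT16. Levels were lower in the second kind in each library, and the order of the groups was alike. The genotype difference at ZT16 was 0.28 ± 0.19 (log2) in the first kind and 0.54 ± 0.21 in the second.

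The distribution over PCT nuclei was shifted as a whole. The median PCT nucleus held 1 and 2 Rhobtb1 UMIs in Ctrl ZT4, 11 and 8 in Ctrl ZT16, 10 and 14 in cKOt ZT4 and 16 and 10 in cKOt ZT16. Per 1000 UMIs of the nucleus, which takes out its depth, the medians were 0.213 and 0.293, 1.66 and 1.69, 2.11 and 1.95, and 2.31 and 2.06. PCT nuclei with no Rhobtb1 UMI made up 37.2% and 22.6% in Ctrl ZT4 but at most 1.47% in each of the other 6 libraries.

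**Figure D2:**
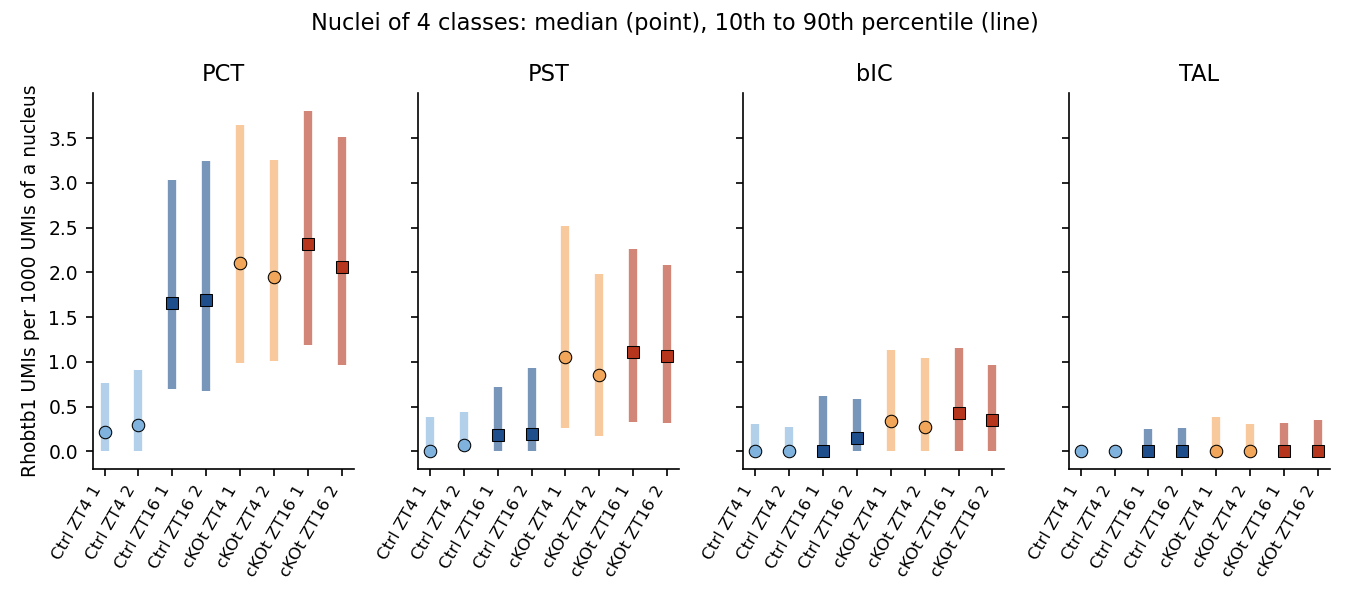
Rhobtb1 UMIs per 1000 UMIs of a nucleus (vertical axis) for the nuclei of 4 classes in each library, with the median as a point and a line from the 10th to the 90th percentile. In PCT the 90th percentile of both Ctrl ZT4 libraries (0.767 and 0.910) lies below the medians of the other 6.

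Shares of nuclei with a UMI were compared after thinning each nucleus to 1000 UMIs. In PCT the thinned share was 25% and 29.7% in Ctrl ZT4, 79.0% and 79.8% in Ctrl ZT16, 86.2% and 84.4% in cKOt ZT4 and 88.2% and 85.5% in cKOt ZT16. Unthinned it was 62.8% and 77.4% in Ctrl ZT4 and at least 98.5% elsewhere. In the thick ascending limb (TAL), a class of low level, the thinned share was 1.70% and 1.93%, 5.62% and 5.72%, 10.1% and 7.47%, and 9.53% and 8.37%. Median depth was 4348 to 6873 UMIs per PCT nucleus and 2984 to 4891 per TAL nucleus.

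The proximal straight tubule (PST), the last part of the proximal tubule, had one of the smallest time differences in Ctrl of the tubule classes. This difference ran from 0.96 to 2.33 (log2) over the 13 classes, and only that of the cortical collecting duct was as large as in PCT. Classes of low level, such as that duct, also held RNA of PCT markers, as given below. How much of their time difference is that of PCT RNA was not tested. In PST, Rhobtb1 was at 157 and 194 CPM in Ctrl ZT4 and at 350 and 424 in Ctrl ZT16. In cKOt it was at 1361 and 1175 CPM at ZT4 and at 1447 and 1346 at ZT16. The groups of Ctrl did not overlap, and both lay far below the cKOt groups, which overlapped each other.

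In PST the genotype difference was 2.83 ± 0.23 (log2) at ZT4 and 1.87 ± 0.22 at ZT16. The difference between time points was 1.11 ± 0.22 in Ctrl and 0.14 ± 0.22 in cKOt, and the interaction was -0.96 ± 0.31. In PCT, by comparison, the ZT16 genotype difference was 0.42 and the Ctrl time difference 2.32. The ratio of PCT to PST level was 2.39 and 2.38 in Ctrl ZT4, 6.01 and 4.95 in Ctrl ZT16, 1.93 and 2.16 in cKOt ZT4 and 2.01 and 1.92 in cKOt ZT16. The ratios of Ctrl ZT16 were the highest of the 8, those of Ctrl ZT4 came next, and the cKOt groups overlapped. No test was made of this difference between the classes, since Rhobtb1 was chosen with its contrasts known.

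PST clusters followed the genotype. Cluster 19 held 90.8% and 93.1% of PST nuclei in Ctrl ZT4 and Ctrl ZT16, and cluster 13 held 97.1% and 99.7% of those in cKOt ZT4 and ZT16. The 84 and 68 nuclei of cluster 13 that came from Ctrl ZT4 and Ctrl ZT16 held Rhobtb1 at 167 and 611 CPM, against 1277 and 1406 CPM for those from cKOt ZT4 and ZT16. In the same cluster, Ctrl nuclei thus lay below cKOt nuclei at both time points. The median PST nucleus held 0 and 0.0735 Rhobtb1 UMIs per 1000 in Ctrl ZT4, 0.186 and 0.192 in Ctrl ZT16, 1.06 and 0.857 in cKOt ZT4 and 1.11 and 1.07 in cKOt ZT16. The thinned share was 12.0% and 13.6%, 22.4% and 24.8%, 64.2% and 57.2%, and 64.5% and 62.9%, and the unthinned share 44.9% and 52.3%, 74.5% and 69.1%, 95.6% and 95.3%, and 98.3% and 96.3%. PST nuclei held 3.65% to 10.5% of the Rhobtb1 UMIs of a library and 18.5% of the whole-kidney genotype difference at ZT16.

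The intercalated cells of the collecting duct, which secrete acid (alpha, aIC) or bicarbonate (beta, bIC), came next among tubule classes. In bIC, Rhobtb1 was at 108 and 132 CPM in Ctrl ZT4, 284 and 277 in Ctrl ZT16, 487 and 537 in cKOt ZT4 and 655 and 556 in cKOt ZT16. Its 4 groups did not overlap, although for time in cKOt Rhobtb1 ranked 5031 of 9566 mRNAs by absolute fold change. The genotype difference was 2.06 ± 0.20 (log2) at ZT4 and 1.09 ± 0.19 at ZT16, and the time difference 1.2 ± 0.21 in Ctrl and 0.23 ± 0.18 in cKOt, with an interaction of -0.97 ± 0.27. The Ctrl time difference and the interaction were thus close to those of PST (1.11 and -0.96). With nuclei scored as doublets removed, the bIC values were 1.5 for genotype at ZT16 and 0.75 for time in Ctrl.

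In aIC, Rhobtb1 was at 82.9 and 62.9 CPM in Ctrl ZT4, 204 and 303 in Ctrl ZT16, 435 and 441 in cKOt ZT4 and 419.2 and 418.6 in cKOt ZT16. Its groups did not overlap either, and Ctrl ZT16 had the widest gap between replicates. For time in cKOt, however, Rhobtb1 ranked 7218 of 8966 mRNAs by absolute fold change. The genotype difference was 2.61 ± 0.24 (log2) at ZT4 and 0.72 ± 0.20 at ZT16, and the time difference 1.80 ± 0.25 in Ctrl and -0.09 ± 0.20 in cKOt. The ZT16 genotype difference in aIC was 0.43 without Ctrl ZT16 replicate 1 and 1.08 without replicate 2. Both classes are small, with 102 to 160 nuclei per library, and together held 0.81% to 1.47% of the Rhobtb1 UMIs of a library.

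The other 9 tubule classes, from the thin descending limb to the medullary collecting duct, had low levels, with genotype and Ctrl time differences in the same direction as in PCT. Per library and class they held 13.2 to 66.2 CPM in Ctrl ZT4, 46.8 to 136 in Ctrl ZT16, 73.3 to 158 in cKOt ZT4 and 90.5 to 155 in cKOt ZT16. In TAL, which reabsorbs salt through Slc12a1, the values were 18.9 and 20.6, 64.0 and 62.7, 122 and 81.1, and 110 and 96.1 CPM. Its genotype difference was 2.33 ± 0.20 (log2) at ZT4 and 0.69 ± 0.17 at ZT16. The macula densa (MD), with 11 to 33 nuclei per library, gave 0.96 ± 0.66 at ZT4, the least precise of the tubule classes, with 0.34 to 1.67 when 1 library was left out. At ZT16 it gave 0.20 ± 0.51, with -0.08 to 0.38 when 1 library was left out, so the direction there did not hold for MD.

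**Figure D3:**
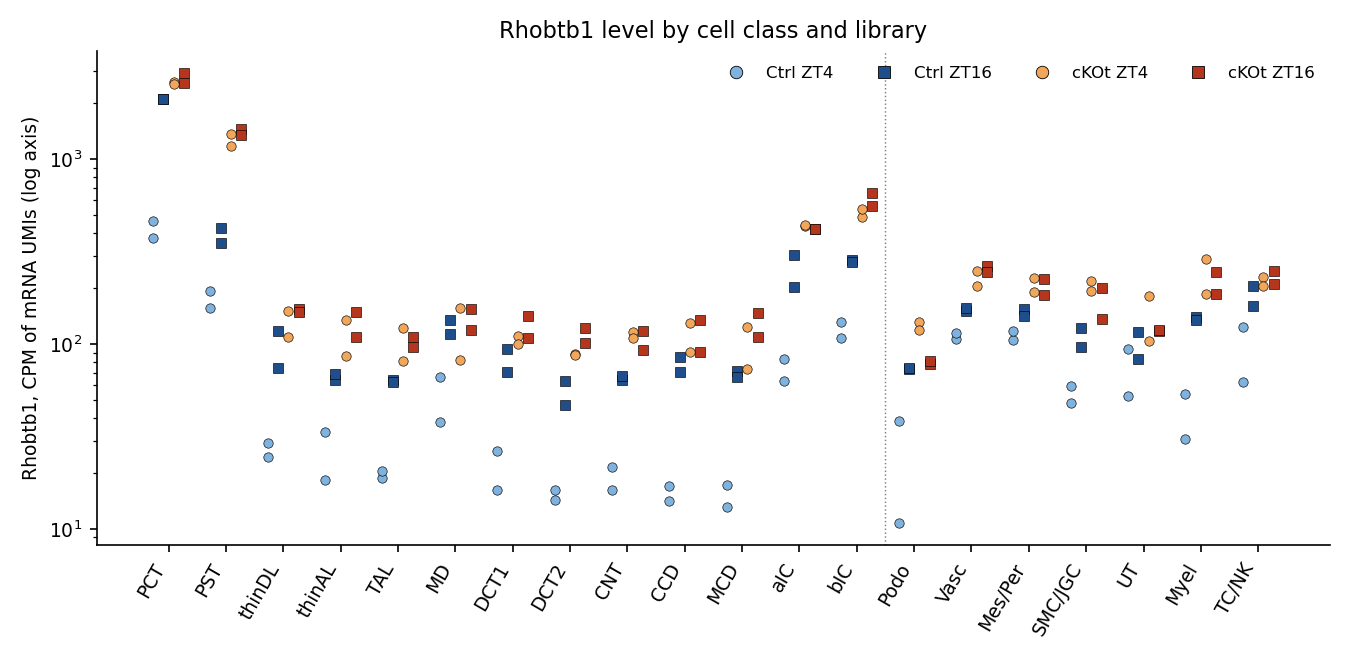
Rhobtb1 in CPM of mRNA UMIs (log axis) for each of the 20 classes, with 1 point per library and a colour and marker per group, tubule classes left of the dotted line. By group mean, PCT, PST and bIC are the 3 highest in each group, and Ctrl ZT4 points lie lowest in most classes.

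Ordered by mean CPM, PCT, PST and bIC held ranks 1, 2 and 3 in all 4 groups, and PCT and PST overlapped no other class in any group. aIC was 4th in 3 groups and 7th in Ctrl ZT4, after mesangial cells and pericytes (Mes/Per), vascular cells (Vasc) and T and NK cells. Below these, most neighbours could not be told apart. Of 19 pairs of neighbours in the order, the replicate ranges of 16 overlapped in Ctrl ZT4 and those of 14 in each of the other groups. By thinned share of nuclei, 10 to 13 of the 20 classes kept the same rank. By that share bIC was 5th in Ctrl ZT4, after Vasc and Mes/Per, and MD shifted by 6 ranks in cKOt ZT4.

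Outside the tubule, the genotype difference at ZT4 differed widely between classes. It was 2.53 ± 0.49 (log2) in podocytes (Podo), which rest on 3 to 29 Rhobtb1 UMIs per library, and was 1.70 there without Ctrl ZT4 replicate 2 and 3.52 without Ctrl ZT4 replicate 1. It was 2.38 ± 0.29 in myeloid cells (Myel). It was 1.27 ± 0.42 in T and NK cells (TC/NK) and 0.92 ± 0.34 in the class with urothelial markers (UT). In Myel, Rhobtb1 was at 30.5 and 53.9 CPM in Ctrl ZT4, 140 and 135 in Ctrl ZT16, 287 and 187 in cKOt ZT4 and 246 and 186 in cKOt ZT16. The cKOt groups of Myel overlapped, and both lay above those of Ctrl. In Vasc, Rhobtb1 was at 107 and 114 CPM in Ctrl ZT4, 151 and 157 in Ctrl ZT16, 249 and 206 in cKOt ZT4 and 263 and 244 in cKOt ZT16. In Mes/Per it was at 105 and 118, 154 and 142, 229 and 191, and 226 and 183 CPM. In both classes Ctrl ZT4 was lowest and the cKOt groups overlapped. The genotype difference at ZT4 was 1.02 ± 0.14 (log2) in Vasc and 0.88 ± 0.16 in Mes/Per. In smooth muscle and juxtaglomerular cells (SMC/JGC), the home of the known RhoBTB1 role, it was at 59.6 and 48.3, 123 and 96.7, 193 and 219, and 136 and 202 CPM over 57 to 87 nuclei per library. The SMC/JGC difference by genotype at ZT4 was 1.92 ± 0.41 (log2). Time in Ctrl gave 1.02 ± 0.45 there. In cKOt, each library of Vasc, Mes/Per, Myel and TC/NK had a higher level than any of the 9 low tubule classes (at most 158 CPM).

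**Figure D4:**
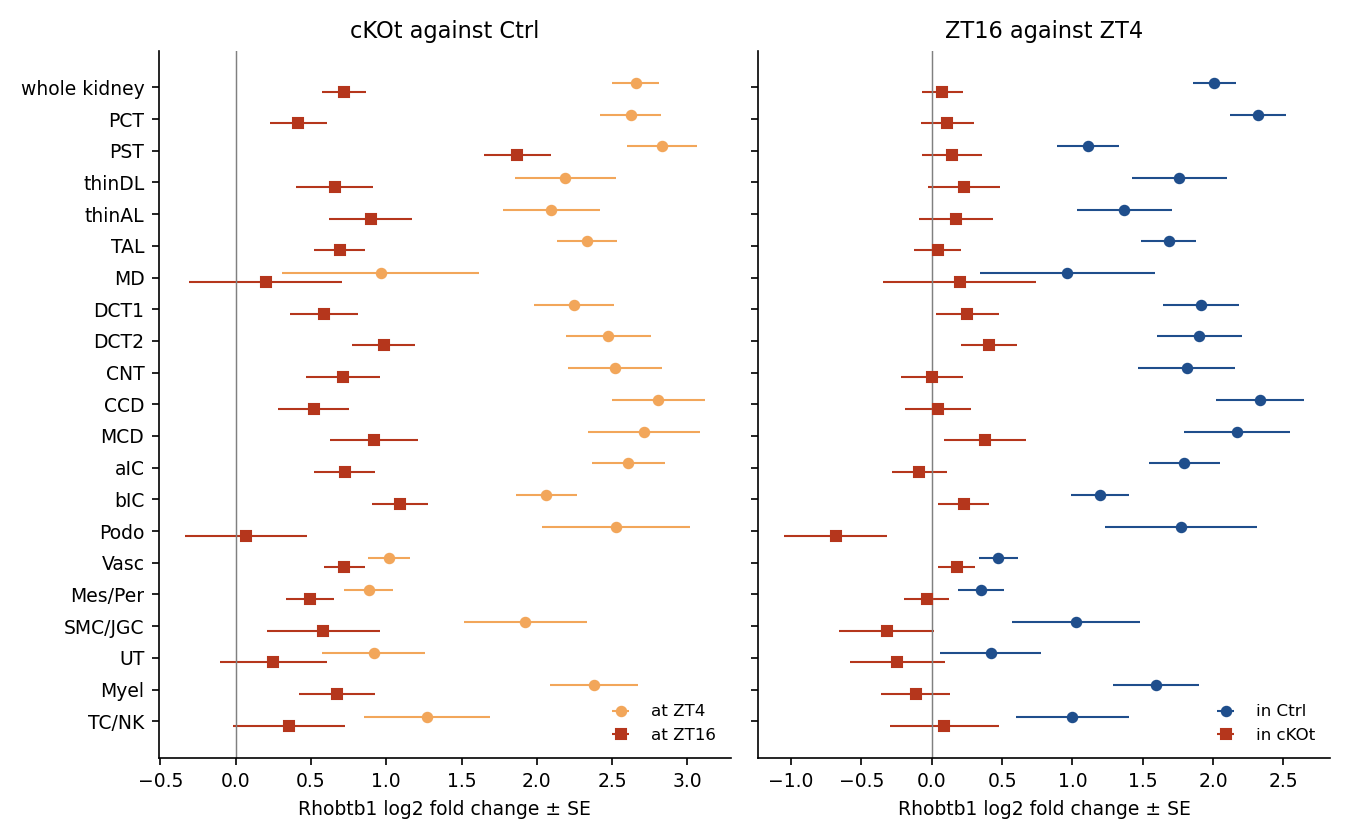
Rhobtb1 log2 fold change with its SE (horizontal axis) for the whole kidney and each class, with cKOt against Ctrl at ZT4 and ZT16 in 1 panel and ZT16 against ZT4 in Ctrl and cKOt in the other. PST combines the highest genotype difference at ZT16 (1.87) with a low time difference in Ctrl (1.11), as does bIC to a lesser degree (1.09 and 1.2). The time differences in cKOt run from -0.68 ± 0.37 in Podo to 0.41 ± 0.20 in DCT2, a part of the distal convoluted tubule.

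PCT marker RNA was present in nuclei of every class. Summed over 9 PCT markers, TAL nuclei held a mean of 692, 605, 710 and 742 CPM in Ctrl ZT4, Ctrl ZT16, cKOt ZT4 and cKOt ZT16, where PCT nuclei held 12653, 9906, 12263 and 11088. The marker sum of TAL thus changed little between groups, while its Rhobtb1 per 100 marker UMIs was at 2.85, 10.5, 14.2 and 13.9. None of the 9 markers was at 0 in TAL in any library. Over the 9 low tubule classes the sum ran from 563 to 1067 CPM in Ctrl ZT4, 556 to 952 in Ctrl ZT16, 621 to 1013 in cKOt ZT4 and 616 to 975 in cKOt ZT16. Per 100 PCT marker UMIs, Rhobtb1 in the 9 low tubule classes was at 1.69 to 6.25 in Ctrl ZT4, 7.75 to 19.1 in Ctrl ZT16, 9.27 to 19.4 in cKOt ZT4 and 10.6 to 18.1 in cKOt ZT16. PCT itself had means of 3.30, 21.7, 21.2 and 24.8 per 100. The ratio of the low classes thus lay below the mean of PCT in 3 groups and on both sides of it in Ctrl ZT4. In Ctrl ZT16, however, the range of the low classes reached above the lower of the 2 PCT libraries. How much of their Rhobtb1 is RNA of PCT was not tested.

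In bIC, this ratio lay above the range of the 9 low tubule classes in every library. In PST and aIC it did so in all libraries but 1 each, PST of Ctrl ZT16 replicate 1 (17.5 per 100) and aIC of Ctrl ZT4 replicate 2 (5.22 per 100). PST held 9.19, 21.6, 70.0 and 69.6 Rhobtb1 UMIs per 100 PCT marker UMIs, bIC 17, 34.8, 60.9 and 59.5, and aIC 7.02, 28.3, 39.1 and 39.6. The PST mean of Ctrl ZT16 was no higher than that of PCT. Outside the tubule, the means of UT (10.1, 20.5, 21.9 and 22.0 per 100) and Mes/Per (13.0, 21.4, 20.3 and 21.4) also lay above the range of the low tubule classes in each group. Those of Vasc (11.5, 17.9, 20.8 and 22.8) did so in all groups but Ctrl ZT16. In Ctrl ZT4 the means of UT, Mes/Per and Vasc lay above those of PST and aIC. In an alternative chosen after seeing the data, the CPM that a class would hold at the TAL ratio of the same library was taken off. The remainder was 121, 197, 1004 and 1118 CPM in PST, 99.8, 195, 390 and 463 in bIC and 42.3, 159, 275 and 272 in aIC. In the cortical collecting duct it was -7.01, -2.09, -22.3 and -13.8 CPM. With the ratio of the connecting tubule taken off there instead, it was -3.51, 14.4, 6.27 and 5.88 CPM.

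PST held a mean of 1905, 1824, 1932 and 2006 CPM of the PCT markers, and how much of this is its own RNA was not tested. Applied to PCT itself, the TAL ratio left 57.9 of 419 CPM in Ctrl ZT4. There cKOt over Ctrl at ZT4 became 14.8, where the full CPM gave 6.17. The remainder is thus no corrected level of a class that makes these markers itself. The remainder kept the order of the group means in PST, bIC and aIC. Between cKOt and Ctrl it was 8.30 times as high at ZT4 and 5.68 times at ZT16 in PST, 3.91 and 2.38 times in bIC and 6.51 and 1.71 times in aIC. From ZT4 to ZT16 in Ctrl it was 1.63 times as high in PST, 1.95 times in bIC and 3.76 times in aIC. In Vasc it was 83.2, 63.7, 71.1 and 99.7 CPM, and in Mes/Per 87.1, 75.4, 62.1 and 72.1 CPM, with cKOt over Ctrl at ZT4 at 0.855 and 0.712, below 1, where the full CPM gave 2.05 and 1.88. With the ratio of the connecting tubule taken off instead, the same 2 values were 1.21 and 1.04. In these classes, the direction at ZT4 thus depended on which ratio was taken off, and it did so in TC/NK and UT too. In Myel the remainder was higher in cKOt ZT4 than in Ctrl ZT4 with either ratio, at 44.7 against 6.24 CPM with that of TAL and 86.8 against 12.3 with that of the connecting tubule. SMC/JGC, at 48.5 against 17.3 and 82.9 against 24.1 CPM, and Podo, at 24.7 against 10.5 and 48.3 against 12.7 CPM, had the same direction in their means. In both, however, the TAL remainder was lower in cKOt ZT4 than in Ctrl ZT4 in replicate 1 (9.81 against 31.1 CPM in SMC/JGC and 0.429 against 25.2 in Podo), so that without cKOt ZT4 replicate 2 the direction turned.

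**Figure D5:**
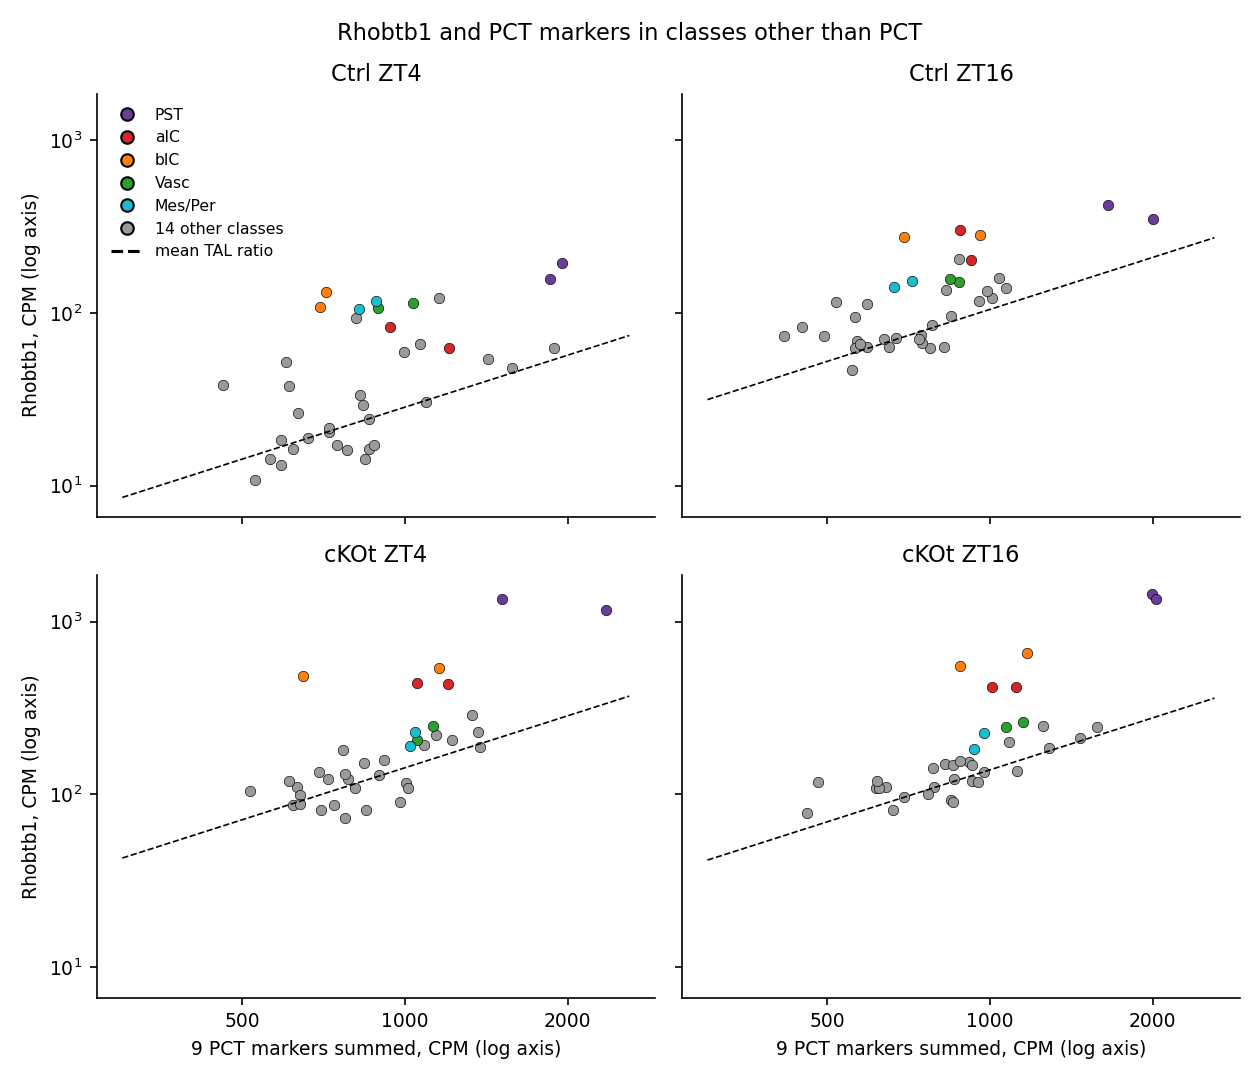
Rhobtb1 CPM against the summed CPM of 9 PCT markers (both log axes) for each class but PCT and each library, 1 panel per group, with a dashed line at the mean ratio of TAL. PST, aIC and bIC lie above the line in each panel, as do Vasc and Mes/Per, while most other tubule classes lie near it.

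The other family members were low over all nuclei and in PCT, and neither was called. Rhobtb2 and Rhobtb3 are its paralogs. Rhobtb2 was at 22.3 to 28.3 CPM over all nuclei and at 16.7 to 22.3 in PCT, over the 8 libraries. Rhobtb3 was at 14.5 to 22.4 CPM over all nuclei and at 3.97 to 6.76 in PCT. Between cKOt and Ctrl at ZT4, the whole-kidney log2 difference was 0.08 ± 0.12 for Rhobtb2 (adjusted p = 0.924, edgeR quasi-likelihood test) and 0.04 ± 0.19 for Rhobtb3 (adjusted p = 0.985). Their highest classes also differed from that of Rhobtb1, with Rhobtb3 at a mean of 77.5 CPM in the thin ascending limb and Rhobtb2 at 77.1 in MD. In Ctrl ZT4, at least 1 paralog had a higher mean than Rhobtb1 in each of the 9 low tubule classes but the thin descending limb. Rhobtb2 was at 40.6 CPM in TAL, for example, where Rhobtb1 was at 19.7.

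Genes related to RhoBTB1 by pathway or family were counted from lists chosen with earlier results of these data known. The lists were the cullin 3 ligase core with neddylation (16 genes) and other BTB adaptors of cullin 3 (26). Regulators and targets of RhoBTB1 with cyclic GMP signalling (13), small GTPases (20) and the other RhoBTB genes were also listed. None of these 77 genes was called by edgeR at an adjusted p of 0.05 over all nuclei in any of the 5 contrasts, and none of the 75 tested in PCT. Of all mRNAs, 0.446% were called for genotype at ZT4, 0.174% for genotype at ZT16, 0.142% for time in Ctrl, 0% for time in cKOt and 0.0183% for the interaction over all nuclei. In PCT the same shares were 0.804%, 0.308%, 0.473%, 0% and 0.035%. At an unadjusted p under 0.05, the lists held 9, 0, 2, 8 and 7 genes over all nuclei, in the same order, beside 1432, 982, 1609, 1337 and 711 of the 16069 to 16351 mRNAs tested. In PCT they held 7, 3, 7, 7 and 4, beside 1216, 1044, 1564, 1136 and 603 of 13955 to 14286. Of the 13 genes of the list with cyclic GMP signalling, 7 were under this limit for genotype at ZT4 over all nuclei (list median -0.21, log2), 6 for time in cKOt (0.18) and 6 for the interaction (0.28), against 4, 3 and 1 in PCT. The median log2 difference by genotype at ZT4 was 0.07 over the listed genes and 0.0028 over all mRNAs tested in whole kidney, and 0.10 and 0.0044 in PCT. Gucy1a1 and Gucy1a2, subunits of the nitric oxide receptor that makes cyclic GMP, depended on the tool. Over all nuclei, their log2 difference by genotype at ZT4 was -0.79 ± 0.20 and -1.04 ± 0.21 in edgeR (adjusted p = 0.183 and 0.10), while DESeq2 gave an adjusted p of 0.0182 and 0.00019. DESeq2 also called both for time in cKOt, where they were higher at ZT16, and Gucy1a2 for the interaction. Gucy1a2 was among the leading genes of a cluster of Mes/Per (mesangial cells and pericytes) that held 1295 nuclei in Ctrl ZT4, 1202 in Ctrl ZT16, 876 in cKOt ZT4 and 1343 in cKOt ZT16, so the number of these nuclei moved with the whole-kidney sums. Within Mes/Per, the log2 difference by genotype at ZT4 was -0.54 ± 0.16 for Gucy1a1 and -0.72 ± 0.17 for Gucy1a2 (adjusted p = 0.331 and 0.191, edgeR), and by time in cKOt 0.67 ± 0.16 and 0.75 ± 0.17 (adjusted p = 0.104 and 0.0883, edgeR). The part of the nuclei numbers in these differences was not tested.

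Values of Cul3, Pparg and Pde5a are given for reference. Rhobtb1 was chosen for its change, so smaller differences in other genes follow from that choice. Cul3, the scaffold itself, was at 187 and 185 CPM in Ctrl ZT4 and at 198 and 185 in cKOt ZT4 over all nuclei. Its log2 difference was 0.07 ± 0.16 (adjusted p = 0.953, edgeR). Pparg, the known upstream regulator in vessels, was at 28.2 and 34.6 CPM in Ctrl ZT4 and at 41.3 and 48.7 in cKOt ZT4, without overlap and with an adjusted p of 0.296 (edgeR). Pde5a, the known downstream enzyme, was at 23.0 and 21.0 CPM in Ctrl ZT4 and at 25.7 and 31.8 in cKOt ZT4 (log2 difference 0.42 ± 0.13, adjusted p = 0.331, edgeR).

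The clock genes of the study formed the list that did move. Over all nuclei 7 of the 16 were called for genotype at ZT4, 5 higher and 2 lower in cKOt, 2 for genotype at ZT16, 7 for time in Ctrl, 0 for time in cKOt and 2 for the interaction. The 0 for time in cKOt is by edgeR, which called 0 of all mRNAs there, with 1337 at an unadjusted p under 0.05. In PCT the counts were 8 (4 higher and 4 lower), 0, 7, 0 and 4. The interaction calls fell to 0 over all nuclei without any 1 library other than cKOt ZT4 replicate 2, and to 0 in PCT without any 1 of the ZT16 libraries. In the other 12 tubule classes, 0 to 9 clock genes per class were called for genotype at ZT4, 0 to 4 for genotype at ZT16, 0 to 9 for time in Ctrl, 0 to 1 for time in cKOt and 0 to 3 for the interaction. Over all mRNAs, the tests of these 12 classes combined gave 0.331%, 0.195%, 0.38%, 0.144% and 0.0305% called. Of the other lists, 1 of 689 tests was called for time in cKOt, that of Rhoq, a small GTPase, in the connecting tubule (log2 difference -1.33 ± 0.30, adjusted p = 0.031, edgeR), and 0 in the other 4 contrasts. The clock genes were listed as such by the study, so their movement with Bmal1 and time is no independent evidence of a direction.

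Clock genes were among the mRNAs most like Rhobtb1 in change. Over 104 points (8 libraries by 13 tubule classes, log2(CPM + 1) centred within class), 3839 mRNAs were ranked by Pearson's r with Rhobtb1. Cry1, a repressor of the clock, had r = 0.91, while Arntl had 0.81 and Npas2, a partner of BMAL1, had 0.79. Ppard, a lipid-sensing nuclear receptor, and Pter had 0.73 each. The points of a library share its depth and its PCT RNA, so r is a description.

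In PCT, these genes had the group order of Rhobtb1 in part. Cry1 was at 3.27 and 1.28 CPM in Ctrl ZT4, 33.1 and 32.5 in Ctrl ZT16, 42.8 and 33.0 in cKOt ZT4 and 46.1 and 41.8 in cKOt ZT16. Its log2 difference by genotype at ZT4 was 4.10 ± 0.33 (adjusted p = 0.000889, edgeR), and by time in Ctrl 3.88 ± 0.33 (adjusted p = 0.00259). As for Rhobtb1, Ctrl ZT4 was the low group of Cry1, whereas Cry1 of Ctrl ZT16 overlapped cKOt ZT4. Npas2 was 4.55 ± 0.29 higher in cKOt at ZT4 (adjusted p = 0.000307, edgeR), with 18.9 and 33.7 CPM in Ctrl ZT4 and 654 and 587 in cKOt ZT4. Arntl was 4.35 ± 0.24 higher (adjusted p = 0.000221), with 11.8 and 14.3 CPM in Ctrl ZT4, 201 and 203 in Ctrl ZT16, 321 and 214 in cKOt ZT4 and 328 and 287 in cKOt ZT16. Ppard was 2.22 ± 0.40 higher (adjusted p = 0.048), with 39.7 and 25.5 CPM in Ctrl ZT4 and 205 and 97.0 in cKOt ZT4.

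Others on the list moved against Rhobtb1. Nr1d1, the repressor REV-ERBα, fell from 26.3 and 26.2 CPM in Ctrl ZT4 to 0.369 and 0.419 in Ctrl ZT16 in PCT (log2 difference -6.05 ± 0.47, adjusted p = 0.00259, edgeR). It was at 1.46 and 3.21 CPM in cKOt ZT4 and 0.340 and 0.766 in cKOt ZT16. The group in which Rhobtb1 was low was thus the one in which Nr1d1 was high. Over all nuclei Nr1d2, REV-ERBβ, differed between cKOt and Ctrl by -1.79 ± 0.16 (log2) at ZT4 (adjusted p = 0.0026, edgeR) and by -1.34 ± 0.16 at ZT16 (adjusted p = 0.0232).

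In level over the 20 classes of Ctrl (8477 mRNAs ranked), genes most like Rhobtb1 were Wdfy1 (r = 0.90), Slc13a1 (0.86), the sulfate transporter of the proximal tubule, Nus1 (0.86), Dab2 (0.85), an endocytic adaptor, and Glis1 (0.85). None of these 5 was called in any of the 5 contrasts over all nuclei or in PCT by edgeR, while DESeq2 called Dab2 for genotype at ZT16 over all nuclei (log2 difference 0.99 ± 0.22, adjusted p = 0.000872 in DESeq2 and 0.196 in edgeR). None of them was among the mRNAs most like Rhobtb1 in change. Since edgeR called at most 0.804% of all mRNAs in any of these contrasts, no call among 5 genes is near the general share.

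The neighbours of Rhobtb1 on the chromosome were also read. These were Arid5b, Cabcoco1 and Tmem26 before it, the nearest 368403 bp away, and Cdk1, Ank3 and Ccdc6 after it, the nearest 43355 bp away (GRCm38.p6). None was called in any contrast over all nuclei or in PCT, by edgeR or DESeq2, and Cdk1 was not tested in PCT in 2 contrasts. By edgeR at most 0.804% of all mRNAs were called in any of these contrasts, so no call among so few genes is near the general share. The share called by DESeq2 is not given here. The antisense gene A930033H14Rik (chr10:69209762-69213098), whose own start lies in window 3, was at 7.05 and 6.93 CPM in PCT of Ctrl ZT4 and at 12.4 and 16.7 in Ctrl ZT16, against 9.85 and 9.46 in cKOt ZT4 and 10.7 and 11.3 in cKOt ZT16, all below Ctrl ZT16. It thus did not have the group order of Rhobtb1, and no source used here says whether the counting used strand. Gm33263 (chr10:69147745-69151323), a lncRNA on the - strand, overlaps the first bases of Rhobtb1 and was not tested.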

How the data were processed

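The study's methods describe nuclei sorted by DAPI and prepared with Chromium 3′ v3.1 chemistry. The submitters' processing notes list bcl2fastq 2.20, Cell Ranger 7.1.0 and Seurat 5. The files are UMI counts per gene and barcode as deposited by the authors, without normalization, and sources differ on the build, with an mm10 reference in the methods and GRCm39 in the labels, so that no coordinate rests on the files. No source used here says whether intronic or antisense reads were counted.

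A barcode was kept if it had 500 or more genes, 800 or more UMIs and no more than 2% of UMIs from mitochondrial genes. Scrublet (scanpy 1.11.5) marked 4367 nuclei (5.37%) as doublets, which stayed in. Nuclei were clustered in Seurat 5.3.0 on mRNAs, with Rhobtb1 left out of the variable genes and 1000 principal components. The 50 clusters were named from marker lists by a rule made once the clusters were known. It asked for a mean z from 0.9 up in the best class. It also asked for 3 or more markers, and 50% of those listed, present in 10% of nuclei and 2-fold above other nuclei. Clusters with a mean z of 0.5 or more for both PCT and PST were named PCT, without the 50% limit. All of these but cluster 18 had a higher mean z for PST than for PCT. Clusters of 1 class differed between groups, so that class comparisons rest on different clusters where stated.

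Counts of 21286 mRNAs were summed per library and class and fitted in edgeR 4.0.16 (TMM, quasi-likelihood, R 4.3.3) as 1 factor of 4 groups over 8 libraries. A gene entered a contrast if both replicates of any group in it had 5 or more counts. The SE of a log2 difference is its absolute value over the square root of the quasi-likelihood F. It rests on a spread pooled over the 8 libraries and moderated across genes, and not on the replicates of the compared groups alone. P-values were adjusted by Benjamini-Hochberg over all mRNAs of the contrast, and 0.05 was the threshold. DESeq2 1.42.0 served as an alternative tool. Rhobtb1, the gene lists and the alternatives were chosen with earlier results of these data known. The text names Rhobtb1, its paralogs, up to 3 called genes with the smallest p of each list and contrast, the 6 mRNAs most like Rhobtb1 in level (among those with at least 50 CPM in a class) and in change, and 3 protein-coding neighbours on each side. Gucy1a1, Gucy1a2, Cul3, Pparg, Pde5a and A930033H14Rik were named after their values were seen. The values of 2 genes that this rule names are not reported here, although list counts include them.

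The 3 promoter windows came from RefSeq (GRCm38.p6), matched by symbol. On simulated data for the genotype contrast at ZT4, edgeR called 82% of 200 changed genes over all nuclei (15998 genes, 9.39% of calls false) and 69.5% in PCT (13897 genes, 9.15% false). The changed genes were drawn from those above a floor of counts and were changed at least 2-fold, up or down. Libraries were simulated as independent. These rates thus do not hold for smaller changes or for genes of low counts. No exact permutation test was made, since a single contrast of 2 against 2 libraries could not reach 0.05.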

Additional observations from a re-analysis of the deposited data

Results flagged for a closer look

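The genotype-by-time interaction was tested for listed genes other than Rhobtb1, and passed for the clock genes given here (edgeR quasi-likelihood test, adjusted over all mRNAs, n = 2 libraries per group). Over all nuclei, the change from ZT4 to ZT16 in cKOt less that in Ctrl was -2.45 (log2) for Cry1 and -2.09 for Npas2, each with an adjusted p of 0.0436. Neither was called once any 1 library other than cKOt ZT4 replicate 2 was left out. In PCT it was -3.71 for Arntl (adjusted p = 0.0149), -3.65 for Cry1 (adjusted p = 0.0499) and -3.12 for Npas2 (adjusted p = 0.0499). No listed gene was called there once any 1 ZT16 library was left out. With the replicate number as a block, the adjusted p (edgeR) was 0.0953 for Cry1 and Npas2 over all nuclei, and in PCT 0.0435 for Arntl and 0.0813 for Cry1 and Npas2. With a replicate block of its own at each time point, an alternative chosen after seeing the data, it was 0.00683 for Cry1 and 0.044 for Npas2 over all nuclei, and 0.0259 for Arntl, 0.0203 for Cry1 and 0.0443 for Npas2 in PCT. These genes are flagged because their time effect differed between the genotypes. For Rhobtb1 the same quantity was -1.94 ± 0.21 over all nuclei and -2.21 ± 0.27 in PCT, with no test.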

How the results depend on the processing

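No log2 difference of Rhobtb1 that was over 2 SE from 0, in the whole kidney or a class, turned its direction under RLE scaling, DESeq2, all genes in 1 fit, doublets removed or clusters from 50 principal components. Of 151 values for the whole kidney and PCT, 134 stayed within the replicate SD (0.147 and 0.125 log2), and of 1330 class values 1226 did. These totals also count the fits with a replicate block and those without 1 library. Many of the latter left out a library that was not part of the contrast, so the value had little room to move. The totals are thus no test of stability. With equal numbers of nuclei of each class per library, the whole-kidney values were 0.46 for genotype at ZT16, 2.2 for time in Ctrl and -2.17 for the interaction. As differences of mean ln-normalized values over nuclei, another scale by construction, they were 0.875, 0.447, 0.521, 0.0937 and -0.428 for genotype at ZT4 and ZT16, time in Ctrl and cKOt, and the interaction.

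Leaving out each library in turn, the whole-kidney values ran from 2.55 to 2.78, 0.56 to 0.86, 1.90 to 2.13, -0.083 to 0.21 and -2.09 to -1.80, and the PCT values from 2.45 to 2.83, 0.36 to 0.48, 2.14 to 2.53, 0.06 to 0.15 and -2.42 to -2.03, in the same order. Counts of listed genes called ran over all nuclei from 6 to 8, 1 to 2, 5 to 7, 0 to 1 and 0 to 2, and in PCT from 7 to 9, 0 to 1, 5 to 8, 0 to 0 and 0 to 3. Outside the clock list the range was 0 to 2 for genotype at ZT4 over all nuclei, with 2 only without Ctrl ZT4 replicate 1, and 0 elsewhere. The interaction calls over all nuclei (2 with all libraries) were 0 without any 1 library other than cKOt ZT4 replicate 2. A lone sample left in a group was assumed to vary like the other groups.

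DESeq2 called 13 listed genes over all nuclei for genotype at ZT4 (2 outside the clock list), 5 for time in cKOt (2 outside) and 6 for the interaction (1 outside), and in PCT 2 for genotype at ZT16, 11 for time in Ctrl and 2 for time in cKOt. Without a filter on low counts edgeR called 1 gene outside the clock list for genotype at ZT4, 2 listed genes for time in cKOt and 4 for the interaction over all nuclei, and 2 for genotype at ZT16 in PCT. With all genes in 1 fit it called 1 for time in cKOt, with 50 principal components 1 for genotype at ZT16 in PCT, and with at least 20 counts 2 for the interaction in PCT. The share of all mRNAs called in each of these settings is not given here. The counts therefore do not tell whether the lists were called more often than other mRNAs. The causes were not tested.

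Replicate numbers were shared across groups, and no source used here says what a number marks. Same-numbered Ctrl and cKOt libraries of 1 time point deviated together (correlations of deviations of 0.48 at ZT4 and 0.47 at ZT16 over all nuclei, and 0.53 and 0.37 in PCT), whereas across time points the correlations ran from -0.28 to 0.21 and from -0.33 to 0.29. With 1 replicate block over all groups the whole-kidney Rhobtb1 values were 2.65, 0.72, 2.01, 0.07 and -1.93, and listed genes called were 2 for time in cKOt and 0 for the interaction over all nuclei and 2 for the interaction in PCT. With a replicate block within each time point, chosen after seeing the data and fitted for genotype and the interaction only, Rhobtb1 was at 2.66, 0.71 and -1.95 over all nuclei and 2.64, 0.42 and -2.22 in PCT. Listed genes called were then 4 for the interaction over all nuclei and 2 for genotype at ZT16 in PCT, and of all mRNAs over all nuclei 156 were called higher and 162 lower for genotype at ZT4, where 48 and 24 were without it. None of the 77 other listed genes was called with this block.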
